A study of Homo sapiens with 8 samples.

Results

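The comparison of 10 μM with 1 μM all-trans retinoic acid (ATRA) rested on 4 of the 8 arrays of the series, the 2 labelled for each dose, and asked which genes of one transformed breast epithelial clone differed in RNA level between the doses. Both groups were trMCF clone 11, cells expanded from a single ring-cloned colony of MCF-10F cells (an immortalized, normal-like human breast epithelial line) that had been transformed with estradiol. Both had been kept in ATRA for 26 days with fresh medium each day, so the doses shared the clone, the agent and the length of treatment. The ATRA stock was made in DMSO, and whether both doses carried the same amount of DMSO is not stated. The remaining 4 arrays, 2 of untreated MCF-10F and 2 of trMCF clone 11 without ATRA, are given below only as levels, and whether the latter cells received the DMSO vehicle is not stated. Total RNA was measured on Affymetrix U133 Plus 2.0 arrays, and every value is a signal intensity on a linear scale or the log2 difference between such signals. A gene is given by its brightest probe set that names no other gene, which left 19775 genes. Separate cultures for the 2 arrays of a dose are not stated either, so every p-value measures the spread between these arrays, which may be technical.

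ATRA is the carboxylic acid form of vitamin A. It binds the receptors RARA, RARB and RARG, which sit with a retinoid X receptor (RXR) on repeated half-sites in DNA, and it induces the CYP26 enzymes that break it down. In skin and other stratified epithelia retinoids are known to lower basal and cornified keratins, and in breast epithelium they have long been studied for effects on growth and differentiation.

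No gene differed between the doses at an adjusted p under 0.05 when the 4 arrays were fitted with 1 mean per dose (limma, Benjamini-Hochberg over 54613 probe sets). At an unadjusted p under 0.05 there were 3719 probe sets, or 6.81%, against 2731 that chance alone gives, and among genes 736 (3.72%) were higher and 583 (2.95%) lower at 10 μM. Most levels lay close together, since 98.6% of genes had a log2 difference within 0.5 of zero and the median over all genes was 0.01. Past a fold of 2 and an unadjusted p under 0.05, 10 μM had 7 probe sets (0.0128%) on the higher side and 36 (0.0659%) on the lower, so the large differences lay mostly on the lower side. With 2 arrays a dose, both arrays of 10 μM lay above both of 1 μM in 21.3% of all genes and below both in 17.5%, so a lack of overlap is common. These counts depended on single arrays. They were 10 and 25 without 1 μM replicate 1, 17 and 77 without 1 μM replicate 2, 24 and 69 without 10 μM replicate 1, and 6 and 68 without 10 μM replicate 2, while the count at an adjusted p was 0 each time.

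With the replicate number as a block in limma, an adjusted p under 0.05 was reached by 5 probe sets (0.00916%) on the higher side and 10 (0.0183%) on the lower side at 10 μM. By gene these were 4 higher (0.0202%), namely TSPAN8, KLHDC7A, MME and ABCG1, and 7 lower (0.0354%), namely KRT14, CALB1, COL8A1, AXL, INSC, AOX1 and SIRPB2. The other calls were a second CALB1 probe set and a probe set unnamed in the annotation used here. The unnamed one read 1222 and 825 at 1 μM and 481 and 373 at 10 μM (log2 difference -1.25). The rest were dimmer probe sets of MLLT3 (log2 difference 1.16) and KCNJ15 (-1.32). The last pair is named after its values were seen, and at their brightest probe sets these genes differed by 0.69 and 0.05. Among genes, 6.33% were higher and 4.91% lower at an unadjusted p with the block. The block left 1 residual degree of freedom, and the labels do not say that a replicate number marks a shared culture or day. The replicate 1 array lay above the replicate 2 array in 13 of the 15 largest lower genes at 1 μM (86.7%, against 51.7% of all genes) and in 10 of them at 10 μM (66.7%, against 52.2%). In the 5 largest higher genes it did so in 1 at 1 μM and in 0 at 10 μM.

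**Figure D1:**
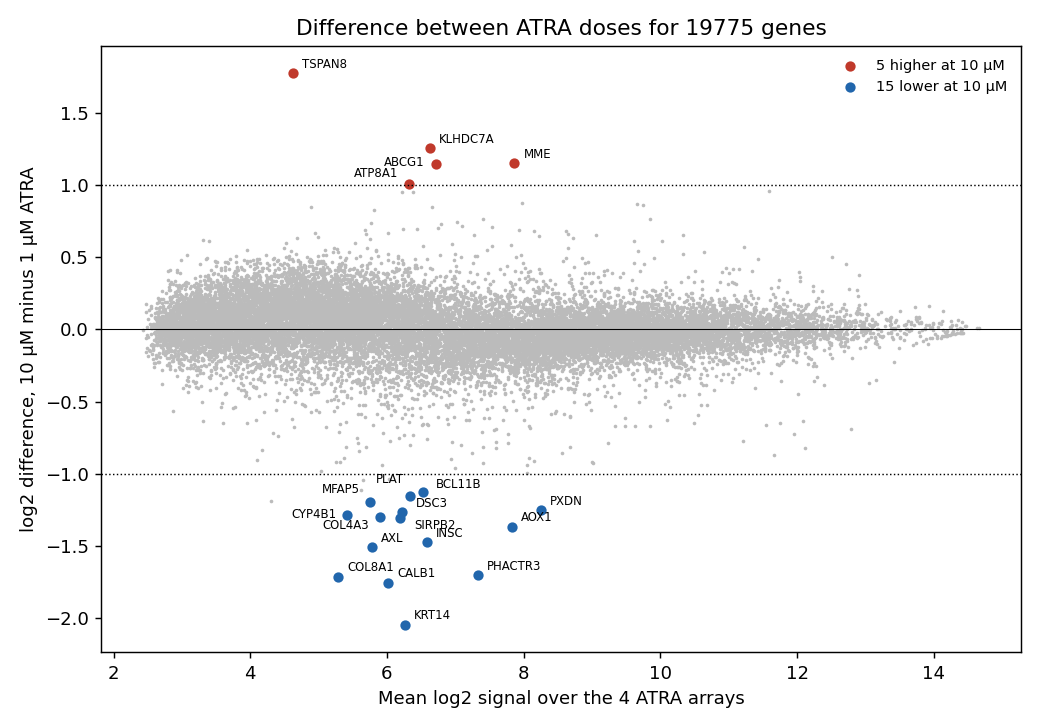
Log2 difference between the doses (vertical axis, 10 μM minus 1 μM ATRA) against the mean log2 signal over the 4 ATRA arrays (horizontal axis) for 19775 genes, with dotted lines at a fold of 2. The 5 genes in red and 15 in blue are the largest differences by the naming rule, from TSPAN8 at 1.77 to KRT14 at -2.05.

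**Figure D2:**
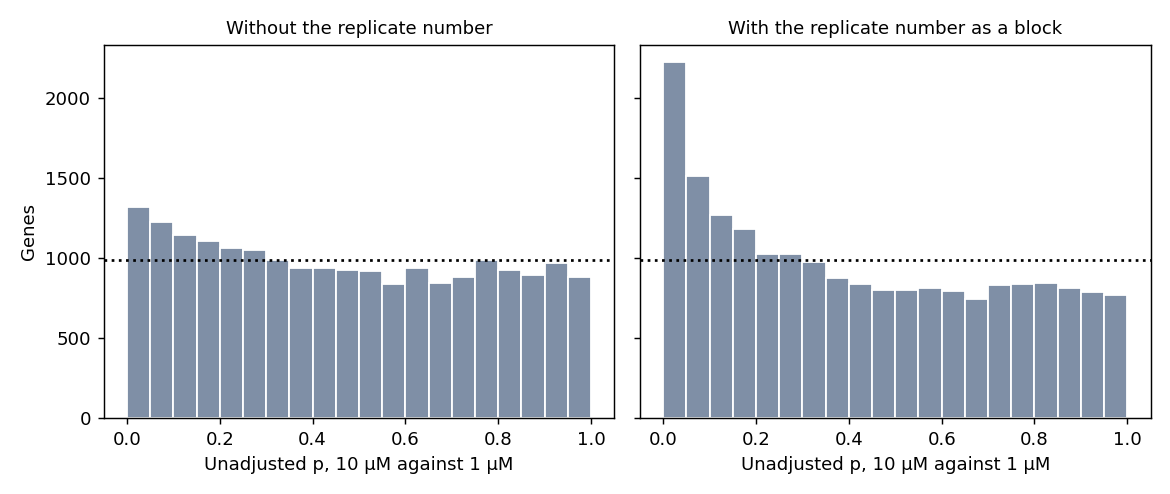
Histograms of the unadjusted limma p of 19775 genes for 10 μM against 1 μM, in 20 bins of equal width, without (left) and with (right) the replicate number as a block. The dotted line is the count per bin if p were uniform, and the lowest bin holds 1319 genes on the left and 2221 on the right.

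Only 5 genes reached a fold of 2 upward with arrays that did not overlap and a mean signal of at least 32 at the brighter dose, where 0.0253% of all genes were higher by that fold at an unadjusted p under 0.05. TSPAN8, a tetraspanin of the cell surface, had signals of 10.4 and 16.9 at 1 μM and 42.6 and 48.6 at 10 μM. Both 1 μM signals were near the dim end of the arrays, where 22.4 to 23.7% of probe sets lay under 16, so the size of its log2 difference of 1.77 (standard error 0.23) is uncertain. Its limma p was 1.49e-04 unadjusted and 0.463 adjusted, or 0.0416 adjusted with the block. KLHDC7A, which encodes a kelch-domain protein, had signals of 64.3 and 63.6 at 1 μM and 147 and 159 at 10 μM. The arrays of each dose agreed closely and the difference was 1.26 (standard error 0.11, limma adjusted p = 0.341, or 0.0431 with the block). A second, dimmer KLHDC7A probe set differed by only 0.04.

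MME, the cell-surface peptidase neprilysin that marks myoepithelial cells in the breast, had signals of 152 and 161 at 1 μM and 335 and 361 at 10 μM. The doses were well apart, with a difference of 1.15 (standard error 0.11, limma adjusted p = 0.341, or 0.049 with the block), and a second probe set gave 0.91. ABCG1, a transporter that exports cholesterol and a known target of the liver X receptors, read 68.7 and 72.7 at 1 μM against 154 and 158 at 10 μM. Its difference was 1.14 (standard error 0.11, limma adjusted p = 0.341, or 0.049 with the block), and its 3 dimmer probe sets were higher too, by 0.44 to 0.88. ATP8A1, a flippase that moves aminophospholipids across membranes, read 50.6 and 63.2 at 1 μM and 104 and 124 at 10 μM. Both 10 μM arrays lay above both 1 μM arrays, by 1.01 in the mean (standard error 0.15), without a call in either fit (limma adjusted p = 0.516, or 0.0886 with the block). Its 2 dimmer probe sets differed by 0.45 and 0.19, and the mean over all of them by 0.55.

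Of the 18 genes that were lower by the same rule (19, or 0.0961% of all genes, without the minimum of signal and the overlap), the 15 largest held keratin and desmosome genes, matrix genes, a protease and a receptor kinase. KRT14, the type I keratin of basal epithelial cells, had signals of 212 and 116 at 1 μM and 42.3 and 34.0 at 10 μM. It was 4.13-fold lower at the higher dose, the largest difference of any named gene at its brightest probe set, at -2.05 on the log2 scale (standard error 0.28, limma adjusted p = 0.463, or 0.0416 with the block). Its 2 arrays at 1 μM were themselves 212 against 116, and the difference ran from -2.48 to -1.61 when 1 array was left out. KRT14, KRT16 and KRT17 are close in sequence, and whether their probe sets read each other's RNA was not tested.

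DSC3, the desmocollin that joins basal epithelial cells in desmosomes, had signals of 139 and 95.6 at 1 μM and 48.7 and 47.3 at 10 μM. Both 10 μM arrays lay below both 1 μM arrays, and the difference was -1.27 (standard error 0.18, limma adjusted p = 0.463). Its other probe sets differed by -1.21 and -0.51. AXL, a receptor tyrosine kinase for GAS6, read 113 and 76.3 at 1 μM and 36.1 and 29.4 at 10 μM. That was a difference of -1.51 (standard error 0.21, limma adjusted p = 0.463, or 0.0416 with the block). A dimmer AXL probe set with signals of 40.1 and 36.0 at 1 μM and 36.7 and 31.3 at 10 μM differed by only -0.16, so the probe sets of this gene disagreed.

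Among matrix genes, COL8A1, the alpha-1 chain of type VIII collagen, had signals of 72.4 and 69.1 at 1 μM and 25.4 and 18.3 at 10 μM. The 2 arrays of each dose lay close and the doses far apart, at -1.72 (standard error 0.17, limma adjusted p = 0.341, or 0.0416 with the block). Its 2 dimmer probe sets, with all signals under 10, differed by -0.47 and 0.15, and the mean over all of them by -0.68. PXDN, the peroxidase that cross-links type IV collagen, read 558 and 397 at 1 μM and 188 and 208 at 10 μM. It was lower by 2.38-fold (log2 difference -1.25, standard error 0.18, limma adjusted p = 0.463), and its second probe set gave -1.44. COL4A3, a chain of type IV collagen, read 101 and 85.9 against 29.5 and 48.8, a difference of -1.30, but its dimmer probe sets ranged from -0.37 to 0.20 and the mean over all of them was -0.29. MFAP5, a protein of elastic microfibrils, read 133 and 50.6 against 46.3 and 27.6. Its 2 arrays at 1 μM were far apart, the difference of -1.20 (standard error 0.45) was the least certain of the 15, and it was -0.50 without 1 μM replicate 1, with an unadjusted p of 0.155 in limma.

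PLAT, the tissue plasminogen activator, had signals of 151 and 95.6 at 1 μM and 65.2 and 44.8 at 10 μM. Its difference of -1.15 (standard error 0.26) had a limma adjusted p of 0.725, and of 0.0503 with the block. INSC, an adaptor that orients the mitotic spindle, read 158 and 163 at 1 μM and 60.9 and 54.8 at 10 μM. The arrays of each dose were nearly equal, and at -1.47 (standard error 0.11) it had the smallest unadjusted p among the named genes, 6.63e-06 in limma, with an adjusted p of 0.341, or 0.0416 with the block. AOX1, an aldehyde oxidase, read 413 and 325 at 1 μM and 171 and 118 at 10 μM, a difference of -1.37 (limma adjusted p = 0.488, or 0.0416 with the block), and its second probe set gave -0.96. CALB1, the calcium-binding protein calbindin, read 169 and 84.6 against 44.0 and 28.4. Its arrays were spread within both doses without overlap between them, and the differences of its 2 probe sets were -1.76 and -2.21 (limma adjusted p = 0.725 and 0.525, or 0.0416 and 0.0151 with the block).

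The rest of the 15 were SIRPB2 (-1.31), PHACTR3 (-1.71), BCL11B (-1.13) and CYP4B1 (-1.28). SIRPB2, of the signal regulatory proteins, read 134 and 97.9 at 1 μM and 52.9 and 40.7 at 10 μM and had a limma adjusted p of 0.488, or 0.0416 with the block. PHACTR3, a regulator of phosphatase and actin, read 365 and 232 against 83.6 and 95.1, and BCL11B, a zinc-finger transcription factor, 129 and 144 against 57.2 and 67.8. Neither passed in either fit, although the doses did not overlap. CYP4B1, a cytochrome P450, read 89.6 and 50.0 against 25.5 and 29.5, while another of its probe sets differed by 0.07, so its probe sets disagreed.

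**Figure D3:**
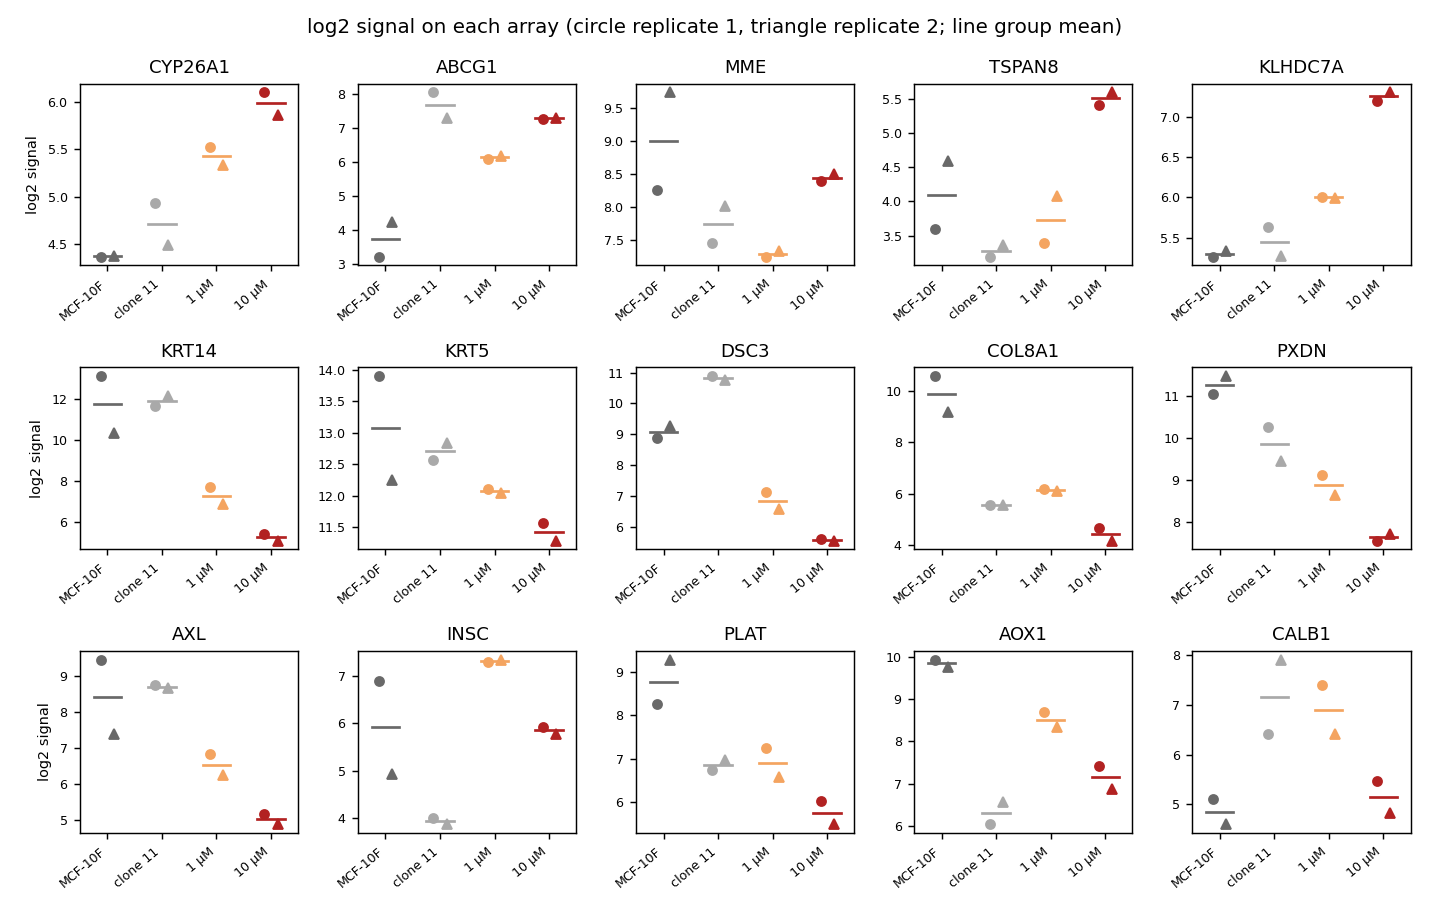
Log2 signal (vertical axes, each on its own range) of 15 named genes on all 8 arrays by group, with circles for replicate 1, triangles for replicate 2 and lines for group means. The 1 μM and 10 μM arrays do not overlap in any panel, which the naming rule required of most of these genes. MCF-10F and trMCF clone 11 arrays are often further apart, as for KRT14 at 9150 and 1330 in MCF-10F.

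Differences in the retinoid system itself were small. Of 35 measured genes that retinoid receptors are known to act on directly, 4 were higher (11.4%) and 0 lower at an unadjusted p under 0.05, where 3.72% and 2.95% of all genes were, and their median log2 difference was 0.10 against 0.01 over all genes. The number higher ran from 1 to 10 over the alternative settings. The 4 were CYP26A1, FOXA1, SOX9 and HOXD4, and none passed at an adjusted p in limma with or without the block. CYP26A1, the enzyme that clears retinoic acid, had signals of 45.9 and 40.2 at 1 μM and 68.9 and 58.4 at 10 μM. The doses did not overlap and the difference was 0.56 (standard error 0.13, limma adjusted p = 0.725), from 0.44 to 0.68 over the alternative settings. CYP26B1, the second enzyme of that family, was at 1616 and 1893 at 1 μM and 1378 and 1879 at 10 μM. Its doses overlapped, with a difference of -0.12 (95% confidence interval -0.54 to 0.30). FOXA1, a pioneer factor of luminal breast cells, read 267 and 268 against 344 and 359 (difference 0.39), and SOX9, a transcription factor of mammary progenitors, 1965 and 1994 against 2394 and 2521 (0.31). NR2F1, an orphan receptor induced by retinoids, read 308 and 433 against 446 and 546, without overlap and with a limma p of 0.059 unadjusted for a difference of 0.43. That difference was 0.19 without 1 μM replicate 1 and 0.68 without 1 μM replicate 2.

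Among the receptors at their brightest probe sets, none passed the unadjusted p without the block. RARB, itself a classical retinoid target, read 35.2 and 38.9 at 1 μM and 42.9 and 36.3 at 10 μM (difference 0.09, 95% confidence interval -0.22 to 0.41). Its dimmer probe sets did not all follow, since 3 of the 4 were higher without overlap and 1 of these, at 18.1 and 15.4 against 23.8 and 20.5, differed by 0.40 (limma adjusted p = 0.725, unadjusted 0.0236). All dose-array signals of these 4 were under 32, and 21.3% of all genes were higher without overlap. RARA differed by 0.27, with an unadjusted p of 0.0489 with the block in limma, and RARG by -0.06. Without the block 0 of 14 measured receptors and cofactors had an unadjusted p under 0.05 in limma. Among 18 genes that make retinoic acid or handle retinol, DHRS9, a retinol dehydrogenase, was the only one past that p (5.56%, against 3.72% of all genes higher). It read 379 and 460 against 616 and 488 (difference 0.39, or 0.23 without 10 μM replicate 1). The largest difference of that list was at RETSAT, a retinol saturase, at -0.47, with doses that overlapped. With the block, 1 was higher and 2 lower at an unadjusted p, where 6.33% and 4.91% of all genes were. The lower ones were RETSAT and LRAT, which esterifies retinol (-0.30). DHRS3, which turns retinaldehyde back into retinol, differed by 0.19 and ALDH1A3, which makes retinoic acid, by -0.09. The binding protein CRABP2 differed by -0.24 and the transglutaminase TGM2 by 0.03, the latter -0.32 without 1 μM replicate 2.

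CYP26A1 and RARB are shown with the start of their genes because both carry the letters of a retinoid receptor motif there. The motif searched was 2 half-sites in direct repeat with 5 bases between them, on either strand, in the 250 bases before the gene start. A half-site was AGGTCA, which is the consensus, or AGTTCA, which is its common variant, or the same letters starting with G in place of A, so that GGGTCA from the former and also GGTTCA from the latter were taken. It lay in 26 of 35116 such windows (0.074%), and in 2 of the 24 named genes, of 33 looked up, that had a window in the RefSeq table used (GRCh38.p14). Both belong to the fixed set of retinoid genes, named whatever their values, and neither to the genes chosen for a large dose difference. The 2 figures, of windows and of genes, are therefore no measure of enrichment. Capitals mark the motif in each sequence, which lies 53 to 37 bases before the start in RARB (chr3:25428013-25428262, plus strand) and, on the opposite strand to the gene, 90 to 74 bases before it in CYP26A1 (chr10:93073643-93073892, plus strand).
RARB: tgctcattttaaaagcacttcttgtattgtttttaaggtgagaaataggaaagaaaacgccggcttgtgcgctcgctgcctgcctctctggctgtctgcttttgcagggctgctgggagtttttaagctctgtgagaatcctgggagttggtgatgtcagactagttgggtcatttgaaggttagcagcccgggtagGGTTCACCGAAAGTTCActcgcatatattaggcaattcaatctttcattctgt
CYP26A1: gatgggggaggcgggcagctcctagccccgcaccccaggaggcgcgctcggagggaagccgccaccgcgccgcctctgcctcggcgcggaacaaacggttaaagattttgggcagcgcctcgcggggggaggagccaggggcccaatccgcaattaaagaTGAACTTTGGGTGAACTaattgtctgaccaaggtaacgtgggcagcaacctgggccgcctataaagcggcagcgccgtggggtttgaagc
The log2 differences beside these windows were 0.56 (CYP26A1) and 0.09 (RARB, or up to 0.40 at its dimmer probe sets). The same half-sites with 1, 2 or 4 bases between them were in 0 of the 24 genes, against 0.0968%, 0.0313% and 0.074% of all windows.

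Targets of the RXR partners, the liver X and peroxisome proliferator-activated receptors, were higher in 4 of 24 measured genes (16.7%) and lower in 0 at an unadjusted p under 0.05. Of all genes, 3.72% were higher and 2.95% lower at that p. The median difference of the list was 0.05. The number higher was 1 to 5 over the alternative settings. Beside ABCG1 they were PDK4, the kinase that shuts pyruvate dehydrogenase, SLC25A20, the carnitine carrier of mitochondria, and MYLIP, which marks the LDL receptor for breakdown. PDK4 read 809 and 802 at 1 μM and 1067 and 1204 at 10 μM (difference 0.49), SLC25A20 261 and 284 against 321 and 342 (0.28), and MYLIP 42.8 and 68.5 against 79.7 and 76.2 (0.53). None of these 3 passed at an adjusted p in limma in either fit. MYLIP was 0.19 without 1 μM replicate 1 as its lowest value with 1 array left out. Of 28 cholesterol and fatty acid synthesis genes, 0 had an unadjusted p under 0.05.

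Basal epithelial genes were the list with the lowest median of the 28, at -0.19, and 14 of its 15 measured members had a difference below zero, where 52.5% of all genes had one above it. At an unadjusted p under 0.05 in limma 4 were lower (26.7%) and 0 higher, against 2.95% and 3.72% of all genes. After KRT14 came KRT16, a keratin of activated keratinocytes, with signals of 332 and 359 at 1 μM and 213 and 216 at 10 μM (difference -0.69, standard error 0.11). KRT5, the partner of KRT14 in basal filaments, read 4389 and 4213 against 3012 and 2496 (difference -0.65, standard error 0.13), and CAV1, the coat protein of caveolae, 9565 and 9710 against 7618 and 7268 (-0.37). In all 4 genes every 10 μM array lay below every 1 μM array, as in 17.5% of all genes. These 4 were picked by p on the same arrays, so the lack of overlap adds no support. Their adjusted p in limma was 0.463 to 0.725, and only KRT14 passed with the block. Over the alternative settings the median of the list stayed between -0.26 and -0.13, but the number past the unadjusted p ran from 1 to 9. MME, a myoepithelial marker that the list does not hold, went the other way, with a difference of 1.15.

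Genes of squamous differentiation and the cornified envelope were split. Of 36 measured, 7 were lower (19.4%) and 3 higher (8.33%) at an unadjusted p under 0.05, against 2.95% and 3.72% of all genes. The median was -0.08, and over the alternative settings the lower ones numbered 2 to 12. KRT4, a keratin of wet squamous linings, read 94.8 and 85.3 at 1 μM and 61.5 and 51.5 at 10 μM (difference -0.68). SCEL, the envelope protein sciellin, read 877 and 582 against 452 and 312 (-0.93), and KLK8, a kallikrein protease of skin shedding, 540 and 466 against 362 and 303 (-0.60). TGM1, which cross-links the envelope, was lower by 1.33-fold (-0.42). The doses did not overlap for any of these 4, and none passed at an adjusted p. The 4 were picked by p on the same arrays, and 17.5% of all genes were lower without overlap. The remaining lower members, named after their values were seen, were the kallikreins KLK7 (-0.47) and KLK5 (-0.34) and the elastase inhibitor PI3 (-0.89, or -0.43 without 1 μM replicate 1), and those higher were CALML3 (0.41), KLK6 (0.44) and KLK11 (0.37). CALML3 was -0.03 when probe sets that can bind several transcripts were left out.

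Desmosome and tight junction genes had a median of -0.13, with 5 of 23 lower (21.7%) and 1 higher (4.35%) at an unadjusted p under 0.05. Of all genes, 2.95% were lower and 3.72% higher at that p. The number lower ran from 1 to 12 over the alternative settings. Beside DSC3, the desmosomal plaque protein PKP2 read 953 and 933 at 1 μM and 729 and 713 at 10 μM (difference -0.39), and cingulin (CGN), of tight junctions, 192 and 193 against 141 and 158 (-0.37). DSG3 (-0.32) and PKP3 (-0.38, or -0.19 without 10 μM replicate 1), a desmosomal cadherin and a plaque protein, are named after their values were seen. CLDN8, a claudin of tight junctions, went the other way, with 382 and 299 against 574 and 477 (difference 0.63, standard error 0.16). None of these passed at an adjusted p in limma, with or without the block. Of 27 luminal genes 1 was higher (FOXA1) and 0 lower, with a median of 0.01, and KRT18, a luminal keratin, differed by -0.06.

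**Figure D4:**
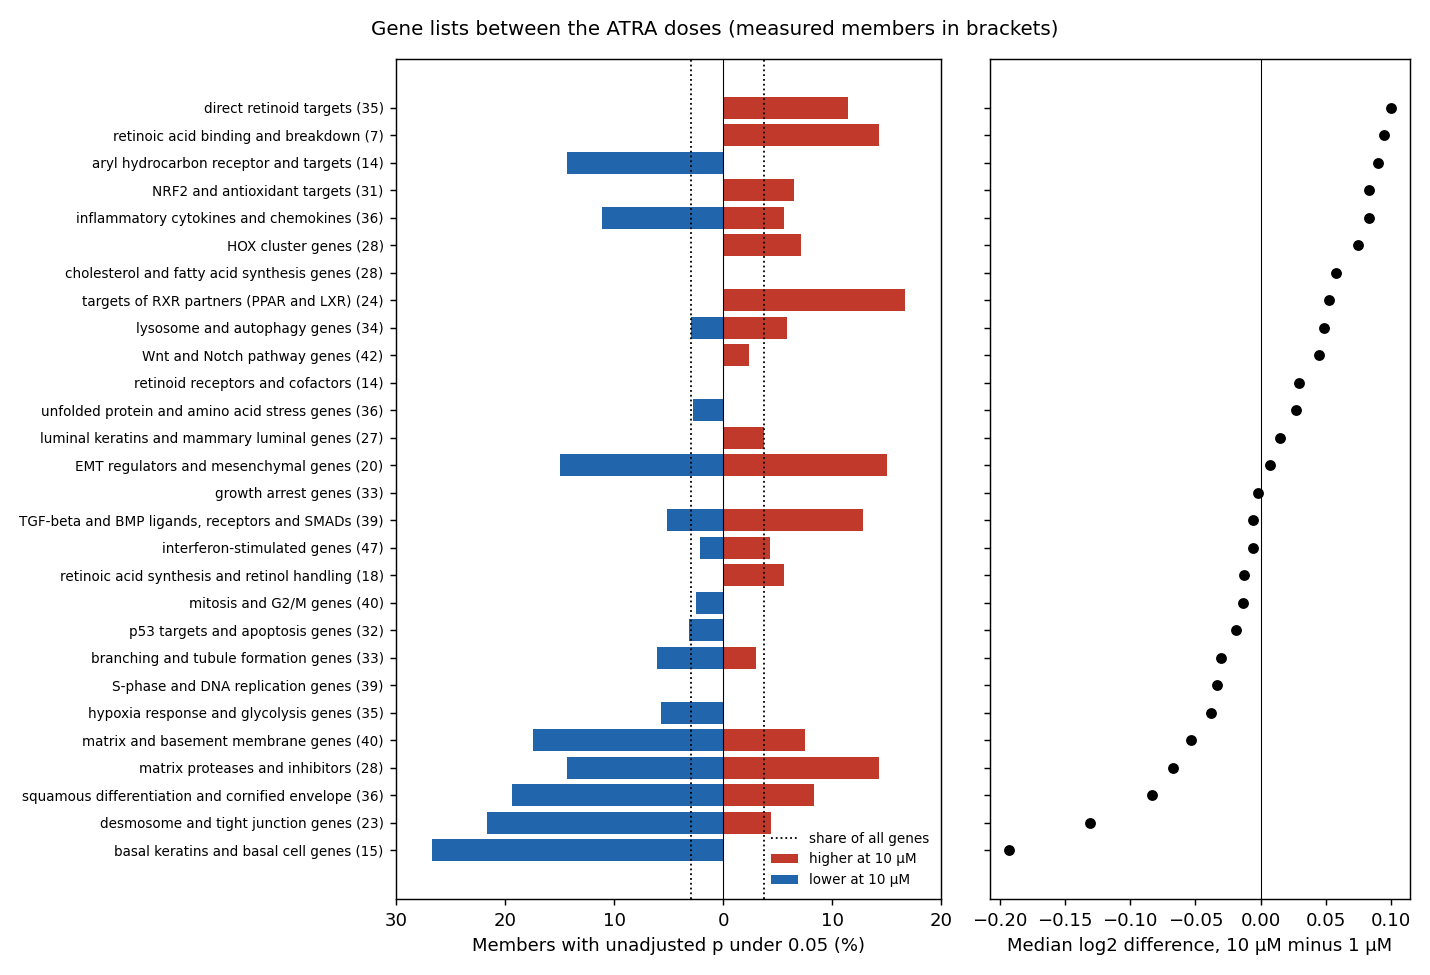
Share of measured members of each of 28 gene lists with an unadjusted limma p under 0.05 (left, red higher and blue lower at 10 μM, dotted lines at the shares of all genes, 3.72% and 2.95%) and the median log2 difference of the list (right). Basal keratin genes have the lowest median, -0.19, and direct retinoid targets the highest, 0.10.

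Matrix and basement membrane genes numbered 7 lower (17.5%) and 3 higher (7.5%) of 40 at an unadjusted p under 0.05. The shares of all genes at that p were 2.95% and 3.72%. The median of the list was -0.05, and 1 to 10 were lower over the alternative settings. After COL8A1, TGFBI, a matrix protein induced by TGF-beta, read 5753 and 4484 at 1 μM and 3471 and 2730 at 10 μM (difference -0.72, standard error 0.17). COL1A1, a chain of type I collagen, read 112 and 110 against 82.9 and 81.0 (-0.44). The proteoglycan decorin (DCN) was higher, at 76.3 and 74.2 against 123 and 102 (0.58). In each of these 3 genes, picked by p on the same arrays, the doses did not overlap, while the limma adjusted p was 0.725 for all. Without overlap, 17.5% of all genes were lower and 21.3% higher. The other higher members, named after their values were seen, were CCN2, the connective tissue growth factor (0.87, or 0.50 without 10 μM replicate 2), and LOXL4, a collagen cross-linking oxidase (0.40). Matrix proteases and their inhibitors were 4 higher and 4 lower of 28 (14.3% each way). PLAU, the urokinase that with PLAT activates plasminogen, read 222 and 142 against 99.5 and 83.8 (difference -0.96, standard error 0.22), and ADAM8, a membrane metalloprotease, 184 and 153 against 109 and 125 (-0.52). The metalloprotease MMP28 (-0.35) was the last of the lower ones. ADAM19 (0.52), PRSS23 (0.30), TIMP4 (0.45, or 0.19 without 10 μM replicate 1) and MMP11 (0.26) were higher, and of these genes MMP28 and the last 3 are named after their values were seen. Both plasminogen activators were lower at 10 μM without overlap, like 17.5% of all genes, and had a limma adjusted p of 0.725.

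Genes of epithelial-mesenchymal transition went both ways, with 3 higher and 3 lower of 20 (15% each) and a median of 0.01. At the same unadjusted p under 0.05, 3.72% of all genes were higher and 2.95% lower. ZEB2, a repressor of E-cadherin, read 33.3 and 33.5 at 1 μM and 22.5 and 23.7 at 10 μM (difference -0.53), and MMP2, a gelatinase, 192 and 200 against 148 and 134 (-0.48). SNAI1, a repressor of the same gene, was higher at 45.7 and 52.7 against 65.5 and 74.4 (0.51), as was CDH2, or N-cadherin, at 162 and 188 against 234 and 231 (0.42). The last 2, named after their values were seen, were SNAI2 (-0.67, or -0.36 without 10 μM replicate 2) and vimentin (VIM, 0.71, or 0.34 without 1 μM replicate 1). None had an adjusted p in limma below 0.725.

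In a few signalling genes the doses did not overlap, as in 21.3% of all genes on the higher side and 17.5% on the lower. INHBA, a subunit of activin A, read 677 and 724 at 1 μM and 356 and 386 at 10 μM, a difference of -0.92 (standard error 0.11, limma adjusted p = 0.463, or 0.0928 with the block). TGFBR3, the co-receptor betaglycan, read 79.0 and 84.3 against 54.7 and 53.6 (-0.59), and SMAD6, which restrains BMP signals, 98.5 and 154 against 193 and 194 (0.65, or 0.33 without 1 μM replicate 1). In the list of TGF-beta and BMP genes 5 of 39 were higher (12.8%) and 2 lower (5.13%) at an unadjusted p under 0.05. The shares of all genes were 3.72% and 2.95%, and the median of the list was -0.01. The others higher were the activin receptor ACVR2A (0.32, or -0.0033 without probe sets that can bind several transcripts) and, named after their values were seen, CHRD (0.28), SMAD9 (0.36, or 0.19 without 1 μM replicate 1) and ID3 (0.27). Among branching genes, FGF2, a fibroblast growth factor, read 239 and 194 against 152 and 114 (-0.71), and HAS2, which makes hyaluronan, was lower by 0.34 on the log2 scale. These were the 2 lower of 33 (6.06%, against 2.95% of all genes). SOX9 was the 1 higher (3.03%, against 3.72%), so both counts were small and the higher share was below that of all genes.

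Of 36 inflammatory cytokine and chemokine genes, 4 were lower (11.1%) and 2 higher (5.56%), against 2.95% and 3.72% of all genes. The median of the list was 0.08. IL1B, the cytokine interleukin-1 beta, read 448 and 339 at 1 μM and 248 and 173 at 10 μM (difference -0.91, standard error 0.21, limma adjusted p = 0.725, or 0.0928 with the block). The interleukin-1 genes IL1A (-0.79) and IL1RN, its antagonist (-0.67), were lower too and are named after their values were seen, and without 10 μM replicate 2 they were -0.45 and -0.40. With probe sets that can bind several transcripts left out, these turned to 0.30 and 0.16, and NFKB2, a subunit of NF-kappa-B, from -0.35 to 0.05. CXCL8, a chemokine for neutrophils, was higher, at 247 and 229 against 362 and 383 (0.65, standard error 0.11, limma adjusted p = 0.619), as was IL36G, an interleukin-1 relative (0.41). Among 47 interferon-stimulated genes, 2 were higher (4.26%) and 1 lower (2.13%), shares close to those of all genes. These were the antiviral synthetase OAS2 (0.64), the GTPase GBP2 (0.65, or 0.40 without 10 μM replicate 2) and, lower, HERC5 (-0.43).

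Growth-related lists held few or no members past the unadjusted p. Among 39 S-phase genes 0 were higher or lower, with differences from -0.17 to 0.13. Of 40 mitotic genes only CDC25B, a phosphatase that starts mitosis, was lower, by 0.36 on the log2 scale, and 0 were higher. Of 33 growth arrest genes 0 passed, and of 32 p53 targets and apoptosis genes DDB2, a DNA repair gene, was the only one, at -0.29. The medians of these 4 lists lay between -0.03 and -0.0017. The largest of these shares, 3.12% lower among p53 targets, was close to the 2.95% of all genes, and a p that misses the threshold does not show equal levels.

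In the other lists, GPX2, a glutathione peroxidase of epithelia, read 40.7 and 88.6 at 1 μM and 98.7 and 137 at 10 μM (difference 0.95, standard error 0.35), and 0.39 without 1 μM replicate 1. It was the larger of 2 higher NRF2 targets of 31 (6.45%, where 3.72% of all genes were higher and 2.95% lower), before EPHX1, an epoxide hydrolase (0.28). The arrays within 1 μM differed here by more than those nearest between the doses. CTSH, a lysosomal cathepsin, read 2125 and 1811 against 3058 and 2785 (0.57), and of 34 lysosome and autophagy genes CTSK (0.32) was higher and ATG16L1 (-0.31) lower beside it, which made 5.88% higher and 2.94% lower. Hypoxia genes were 2 lower (NDRG1 at -0.37 and ENO2 at -0.40) of 35 (5.71%), aryl hydrocarbon receptor genes 2 lower (the aldehyde dehydrogenase ALDH3A1 at -0.35 and ARNT, the receptor's partner, at -0.37) of 14 (14.3%). Genes of unfolded protein and amino acid stress were 1 lower (CTH, which makes cysteine, -0.40) of 36 (2.78%). HOXD4 and HOXD1 were higher by 0.31 each among 28 HOX genes (7.14%), at signals of 23.0 to 34.5. HOXD1 was -0.06 without probe sets that can bind several transcripts, and 0 of the list passed the unadjusted p after cyclic loess normalization. Of 42 Wnt and Notch genes, NRARP, a Notch target, was the only one (0.30, 2.38%).

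Markers of breast epithelium were present at high signals on every dose array, with EPCAM at 6556 to 7260 and E-cadherin (CDH1) at 4472 to 5155. All 9 measured epithelial markers had a difference below zero, from -0.65 (KRT5) to -0.03, where 52.5% of all genes had one above it. Their median was -0.13, and 2 were lower at an unadjusted p under 0.05 in limma (22.2%, against 2.95% of all genes). These 2, KRT5 and PKP3, are also members of lists above. The summed signal of the 9 markers was 45484 and 42259 at 1 μM and 39953 and 38296 at 10 μM. Of the other cell types, the summed signals were 577 and 525 against 511 and 486 for 10 fibroblast markers, 260 and 271 against 298 and 301 for 8 adipocyte markers, 780 and 684 against 863 and 907 for 8 leukocyte markers and 775 and 953 against 1022 and 1386 for 8 endothelial markers. The difference was above zero in 8 of 8 endothelial, 7 of 8 leukocyte, 7 of 10 fibroblast and 5 of 8 adipocyte markers. Of these markers 5, 3, 4 and 4 had a mean signal under 32 at both doses. The defining genes PTPRC (9.93 to 14.4), LUM (14.1 to 17.9) and ADIPOQ (7.55 to 9.54) were near the dim end. Single genes made up most of the leukocyte and endothelial sums, namely CD14 (436 to 661) and PECAM1 (597 to 1183). At an unadjusted p under 0.05, FAP (-0.90) and COL1A1 (-0.44) were lower and DCN (0.58) higher among fibroblast markers, and PLIN1 (0.44), CD14 (0.36) and PECAM1 (0.54) were the 1 higher marker of the adipocyte, leukocyte and endothelial lists. PECAM1 read 597 and 766 against 821 and 1183, and its difference was 0.28 without 10 μM replicate 2. Both doses were cultures of 1 epithelial clone, so these markers are given as RNA levels in that clone and not as counts of other cell types. The part of shifts among the cells of a culture was not tested, and fewer cells in a given state cannot be told apart from less RNA per cell in bulk samples.

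Set beside the untreated cells, as a description, the genes with large dose differences had no order common to all. KRT14 read 9150 and 1330 in MCF-10F and 3230 and 4549 in trMCF clone 11, so both doses lay far below all 4 untreated arrays, and 10 μM further than 1 μM. KRT16 (2037 to 4987 untreated) and DSC3 (474 to 1906) had the same order. INSC read 119 and 30.5 in MCF-10F and 16 and 14.5 in trMCF clone 11, so its 1 μM arrays were above all untreated ones. AOX1, PHACTR3 and COL4A3, like INSC, were lowest in the clone, higher at 10 μM and higher still at 1 μM. AOX1 read 978 and 868 in MCF-10F and 65.8 and 94.8 in the clone, against 413 and 325 at 1 μM and 171 and 118 at 10 μM. The paper lists AOX1, PHACTR3 and COL4A3 among genes lower in the clone and raised by 1 μM ATRA. ABCG1 read 9.25 and 18.8 in MCF-10F and 269 and 157 in trMCF clone 11, and its 10 μM arrays lay nearer to the clone than its 1 μM arrays did. COL8A1 read 1524 and 578 in MCF-10F and 47.7 and 47.4 in the clone, with 1 μM above and 10 μM below the clone. CYP26A1 was at 20.7 and 20.8 in MCF-10F and 30.5 and 22.4 in the clone, and so in ascending order from untreated to 1 μM to 10 μM.

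The median signal was 47.4 to 48.1 on the 4 arrays. One sign of RNA quality moved with replicate number rather than dose. The log2 gap between the 3′ and 5′ probe sets of ACTB was 2.68 and 2.65 on the replicate 1 arrays and 3.11 and 3.06 on the replicate 2 arrays, and its part in the differences was not tested. It was also larger on replicate 2 in MCF-10F (2.48 and 2.96) and in trMCF clone 11 without ATRA (2.51 and 2.98). The GAPDH gap was slightly larger on replicate 2 at 1 μM (0.76 and 0.81) and 10 μM (0.76 and 0.84). In MCF-10F (0.76 and 0.47) and the clone without ATRA (0.65 and 0.36) it was smaller on replicate 2. The difference between doses moved slightly with signal level, with medians of 0.04 for 3056 genes below a mean log2 signal of 4, 0.08 for 5637 genes from 4 to 6, and -0.03 for 4118 genes from 6 to 8 and for 4176 from 8 to 10. Cyclic loess normalization of the 4 arrays brought these to 0.01, 0.03, -0.0032 and -0.0046, with 0 probe sets at an adjusted p in limma and 7 higher and 40 lower at a fold of 2.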

How the data were processed

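RNA of 8 samples had been hybridised to Affymetrix U133 Plus 2.0 arrays, 1 channel each. The authors summarised the probes of each array and normalized between arrays, and deposited 1 intensity per probe set on a linear scale. The study names both MAS 5.0 and Iterative Plier for this, but not which made the deposited table (not given in the sources used here). Raw probe values and detection calls were not used here.

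Intensities were taken as log2 with no pseudocount and no filter. Of 54675 probe sets 62 controls were left out. Of the 54613 tested, 41091 name 1 gene, 1801 several and 11721 none. A gene is its probe set with the highest mean log2 signal over the 8 arrays. The 4 ATRA arrays alone were fitted in limma 3.58.1 (R 4.3.3, lmFit and eBayes, 1 mean per dose, Benjamini-Hochberg), with a prior of 4.52 degrees of freedom beside 2 residual ones, and again with the replicate number as a block (5.65 and 1). The script was tested on simulated data. Samples were grouped by title, as 1 array of trMCF clone 11 carries a disease label that goes against its title. The number of arrays limits the precision.

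Named genes were, per direction, up to 15 with the largest difference and an adjusted p under 0.05, filled with those of an unadjusted p under 0.05, a log2 difference of at least 1, a mean signal of at least 32 at the brighter dose and arrays that did not overlap. To these were added up to 4 members of each of 33 lists with the smallest p, of which 5 are cell type markers, and a fixed set of retinoid and keratin genes. KRT17 had no probe set naming it alone. The members and lists were chosen with earlier results of these data known. Lists got no test of their own.

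Alternatives were the replicate block, all 8 arrays, quantile normalization, a trend and robust prior, a floor of 16, no dim probe sets, no probe sets with shared-target suffixes, a gene's mean over its probe sets, and leaving out each array. The block with a trend and robust prior, and cyclic loess, were added after seeing the data. Promoter windows and motifs came from a RefSeq table (GRCh38.p14). Figures used matplotlib 3.10.9 and pandas 2.3.3.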

Additional observations from a re-analysis of the deposited data

How the results depend on the processing

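With 2 arrays per dose the call depended on the model. At an adjusted p under 0.05 limma called 0 probe sets without the replicate block, in every planned setting that left the block out. The replicate block called 5 probe sets higher and 10 lower (4 and 7 genes). The same block with a trend and robust prior, chosen after seeing the data, called 242 and 497 probe sets (124 and 242 genes), and the cause of that gap was not tested. The replicate 1 minus replicate 2 differences of the doses correlated at 0.351 over all probe sets, with 2 pairs only, as a hint from the data and not the design.

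Where 7 probe sets were higher and 36 lower past a fold of 2 and an unadjusted p, leaving out 1 array gave 6 to 24 higher and 25 to 77 lower. A floor of 16 gave 21 lower, and leaving out probe sets with shared-target suffixes, so that fewer were tested, gave 4 higher and 22 lower.

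Differences were recomputed for genes named for size, the fixed set and list members with an unadjusted p under 0.05. Other named list members, such as RETSAT and LRAT, were left out. The replicate block, the trend and robust prior and the fit of all arrays cannot change a difference in this balanced design. Leaving out 1 array cannot turn the sign where the doses do not overlap. Many recomputed differences were therefore bound to keep their direction, and 1537 of 1552 kept it. The exceptions, whose cause was not tested, were CALML3 (-0.0312), NFKB2 (0.0544), IL1A (0.30), IL1RN (0.16), HOXD1 (-0.0608) and ACVR2A (-0.0033) without shared-target probe sets, and ALDH1A3 (0.0775) and TGM2 (-0.0543) as means over probe sets. With 1 array left out, ALDH1A3 ran from -0.3131 to 0.1425, KRT18 from -0.1436 to 0.0157, TGM2 from -0.3232 to 0.3884, CYP26B1 from -0.344 to 0.1036 and RARB from -0.0269 to 0.2138, with a change of sign in each. Of 462 recomputed list medians, 28 moved by more than the spread between arrays, and the settings that change only the model could not move them. Dim signals limit the size of differences such as that of TSPAN8.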
